A study of Drosophila melanogaster with 3 samples.

Results

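Divergent promoter peaks are places where embryonic chromatin bound by GFP-tagged CG4328 lies between, or close to, 2 genes that are read in opposite directions. They were taken from the optimal peak list of an anti-GFP chromatin immunoprecipitation with sequencing (ChIP-seq) in whole Drosophila melanogaster embryos. A peak was a member when its summit lay within 500 bp of a protein-coding transcription start on the plus strand and of another on the minus strand. Peaks whose nearest gene had a symbol starting with RpL or RpS, the cytoplasmic ribosomal protein genes, were left out. The rule kept 672 of 3688 optimal peaks (18.2%), after 30 of the 702 both-strand summits were removed. A further 1217 peaks had a start within 500 bp on 1 strand only and are called single-orientation promoter peaks here, again without RpL and RpS genes.

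All embryos came from 1 transgenic line, CG4328-GFP, with GFP at the C-terminus of CG4328, a LIM-homeodomain protein. They were 8 to 24 h old, of mixed sex, and made up 1 group of 3 biological replicates. The sources used here do not give the promoter that drives the transgene, and no untagged or input library was analysed here, so no background level could be set beside the peaks. Each replicate had its own list of 30000 peaks, from which the 3688 highest form its top list. Read depth was not known for any replicate.

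In flies many housekeeping genes stand head to head, with their 5′ ends facing each other across a short nucleosome-poor stretch that serves both. Such promoters often hold the DNA replication-related element (DRE), bound by the factor Dref, and the elements known as Motif 1 and Motif 7. Developmental promoters more often hold a TATA box, an initiator or GAGA sites. Homeodomain proteins bind sequences with a TAAT core.

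The stretches between the annotated starts are shown for 8 members, because they are the DNA that each pair of genes shares. The 6 highest members off arm R of chromosome 2 with a stretch of at most 300 bases and no annotated transcript in it come first. They are followed by the highest such member with a DRE anywhere in its stretch and the highest with Motif 1 there. Each is the dm6 plus strand, 5′ to 3′, running from the base after the minus-strand start to the base before the plus-strand start. They lie at chr3R:15229409-15229664 for Art3/mRpS10, chr3L:21304659-21304696 for CG11309/CG7632, chr3L:19612200-19612454 for Lon/PIG-F, chr2L:8376798-8377034 for CG13390/CG17294, chr3L:15982870-15983134 for brm/Arl1, chr3L:5139396-5139618 for Tcs5/CHMP2B, chr3L:9426759-9427009 for Atat/Shc and chr3L:6193180-6193479 for Sf3b6/Tnpo. Here and throughout, the minus-strand gene of a pair is named first. Capitals mark matches on either strand to the DRE octamer TATCGATA, Motif 1 GGTCACACT, Motif 7 CAGCNCTG, the E-box CAGCTG, the TATA box TATAAA and the homeodomain core TAATTA.
Art3/mRpS10: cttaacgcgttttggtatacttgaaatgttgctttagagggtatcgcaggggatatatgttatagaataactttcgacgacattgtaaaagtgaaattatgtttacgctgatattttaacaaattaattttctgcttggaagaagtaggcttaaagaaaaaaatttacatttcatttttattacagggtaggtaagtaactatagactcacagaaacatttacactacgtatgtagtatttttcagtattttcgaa
CG11309/CG7632: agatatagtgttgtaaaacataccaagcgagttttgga
Lon/PIG-F: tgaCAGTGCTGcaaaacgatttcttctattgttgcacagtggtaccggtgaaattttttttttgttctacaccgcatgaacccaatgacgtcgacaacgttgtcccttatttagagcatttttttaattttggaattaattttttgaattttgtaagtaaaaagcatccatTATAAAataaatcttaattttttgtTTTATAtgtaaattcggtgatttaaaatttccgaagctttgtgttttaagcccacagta
CG13390/CG17294: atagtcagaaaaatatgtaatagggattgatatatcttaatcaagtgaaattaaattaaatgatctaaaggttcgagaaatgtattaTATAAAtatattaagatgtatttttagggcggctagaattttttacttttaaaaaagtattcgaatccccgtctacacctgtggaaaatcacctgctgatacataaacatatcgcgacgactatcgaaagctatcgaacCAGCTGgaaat
brm/Arl1: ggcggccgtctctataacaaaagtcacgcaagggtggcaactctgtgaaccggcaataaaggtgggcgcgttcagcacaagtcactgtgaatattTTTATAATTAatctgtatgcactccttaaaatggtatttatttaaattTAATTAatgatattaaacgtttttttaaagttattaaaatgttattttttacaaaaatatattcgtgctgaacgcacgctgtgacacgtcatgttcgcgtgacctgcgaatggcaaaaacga
Tcs5/CHMP2B: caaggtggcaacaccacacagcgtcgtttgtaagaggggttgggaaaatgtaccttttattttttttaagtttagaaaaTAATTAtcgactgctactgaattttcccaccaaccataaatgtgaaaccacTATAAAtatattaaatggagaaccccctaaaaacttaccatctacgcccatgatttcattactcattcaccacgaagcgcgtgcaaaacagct
Atat/Shc: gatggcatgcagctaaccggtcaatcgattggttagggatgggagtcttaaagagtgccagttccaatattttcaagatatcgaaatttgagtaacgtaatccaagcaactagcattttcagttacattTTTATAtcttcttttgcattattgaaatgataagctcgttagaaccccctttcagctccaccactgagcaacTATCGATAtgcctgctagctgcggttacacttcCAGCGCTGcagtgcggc
Sf3b6/Tnpo: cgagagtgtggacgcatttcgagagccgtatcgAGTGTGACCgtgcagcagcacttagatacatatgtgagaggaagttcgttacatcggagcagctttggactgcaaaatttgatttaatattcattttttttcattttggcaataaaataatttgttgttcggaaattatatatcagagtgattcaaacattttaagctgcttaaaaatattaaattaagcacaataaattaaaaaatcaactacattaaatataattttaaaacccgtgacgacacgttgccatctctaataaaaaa

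Many more stretches were eligible: 236 members off that arm had one of at most 300 bases without a transcript. Of these stretches, 40 held a DRE and 9 held Motif 1. Further below, motifs are instead counted within 100 bp of the summit, so those counts and the highest members can differ. None of the 6 elements was found between Art3, a protein arginine methyltransferase gene, and mRpS10, a mitochondrial ribosomal protein gene. Between brm, the ATPase of the fly SWI/SNF remodelling complex, and Arl1, a Golgi GTPase gene, TAATTA was found 37 bp to the left and 7 bp to the right of the summit. The stretch between Tcs5 and the ESCRT-III gene CHMP2B held TAATTA 31 bp to the left of the summit and TATAAA 20 bp to the right. In Atat/Shc, which pairs a tubulin acetyltransferase gene with a signalling adaptor gene, the DRE lay 77 bp to the right of the summit. A single Motif 1, 142 bp to the left of the summit, was found between Sf3b6, a splicing factor gene, and Tnpo, a nuclear import receptor gene.

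Of the 12 highest members, all were among the 100 highest peaks of every replicate. Ranks are given by the authors' signal value, with 1 the highest. Pdrg1/Pal1 was the highest, at rank 12 of the optimal list, and ranked 9, 22 and 9 in replicates 1, 2 and 3. Pal1 encodes a lyase that amidates neuropeptides. Art3/mRpS10 followed at rank 13, with 15, 25 and 7. CG11309/CG7632 was at rank 14, with 12, 10 and 20, and its starts were 39 bp apart with the summit outside them. CG5611/Mtl was at rank 19 and placed 20, 33 and 13.

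Lon/PIG-F joins a mitochondrial protease gene to a gene of GPI-anchor synthesis; it was at rank 20 and placed 27, 38 and 12. CG13390/CG17294 was at rank 29, with 40, 32 and 29. For brm/Arl1, at rank 30, the replicate ranks were 59, 62 and 14, so replicate 3 placed it higher than both others. The pair of eIF4EHP, which encodes a cap-binding repressor of translation, and CG18428 was at rank 32, with 30, 47 and 21. Tcs5/CHMP2B stood at rank 34, with 31, 65 and 27. Pax, the paxillin gene of cell adhesions, faced Alp12, an alkaline phosphatase gene, at rank 43, with 57, 28 and 65. The mRpS23/CenG1A peak, at rank 54, had 34, 75 and 69. Hrd3, a gene of endoplasmic-reticulum-associated degradation, and PTPMT1 shared the peak at rank 56, with 55, 82 and 38.

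Several other pairs were picked out after their values were seen. Cp190, which encodes an insulator protein, shared its peak with CG4338 (rank 63, and 74, 110 and 35 in the replicates). Fer1HCH and Fer2LCH, the 2 subunits of secreted ferritin, shared the peak at rank 97, which placed 92, 93 and 112. The lowest member was aurB/Stam, a mitotic kinase gene and an endosomal sorting gene, at rank 3688, the last of the optimal list, with replicate ranks 2796, 6345 and 3175.

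Divergent promoter peaks made up 35.6% of the 1889 promoter peaks of both kinds (95% Wilson interval 33.4 to 37.8%, which covers the number of peaks only, as do all such intervals here). In the top lists of replicates 1, 2 and 3 the share was 35.0, 31.6 and 37.0%, a mean of 34.5 ± 2.75% (SD, n = 3). Replicate 2 was the lowest. Among the 6079 promoter peaks of the pooled relaxed list that did not overlap an optimal peak, 14.9% were divergent (interval 14.0 to 15.8%). Divergent peaks were spread over the whole range of signal: 19 were among the 100 highest optimal peaks and 142 among the 737 highest. Over 5 equal steps of the optimal list, from the highest to the lowest, divergent peaks were 33.5, 44.2, 38.8, 30.1 and 30.4% of promoter peaks. Their median rank in the optimal list was 1568, against 1782 for single-orientation promoter peaks. The 672 records gave 635 separate places once overlapping records were counted once, and belonged to 630 gene pairs with 1259 genes; 42 pairs had 2 members each.

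The rule fixed starts on both strands within 500 bp of the summit but not their order, and the distances given next are a description that this limit bounds. In 656 members (97.6%) the starts faced away from each other with the minus-strand start on the left, which is the head-to-head layout. In the other 16 (2.38%) the 5′ ends overlapped. Pairs across the annotation, with or without a peak, were counted without those that have an RpL or RpS gene. Of 2663 opposite-strand pairs with closest starts at most 1000 bp apart, 105 overlapped (3.94%). The head-to-head layout is thus common to nearly all such pairs and not particular to the members. The starts of head-to-head members were a median of 295.5 bp apart, with quartiles of 226 and 394.25 bp and a range of 2 to 897 bp. The summit lay between the starts in 544 of the 656 (82.9%), and upstream of both starts in 541 of all 672 members (80.5%). Only 4 summits lay downstream of both. In the 544, the summit was a median of 51.75 bp from the middle of the stretch, and 270 summits were within 50 bp of it.

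The distance from the summit to the nearer start had a median of 95.5 bp in divergent promoter peaks, against 180 bp in single-orientation promoter peaks; a peak with starts on both sides has more chances of a near one, so this difference is partly built into the rule. The farther start of a divergent peak was a median of 213 bp away. Replicate summits were set against the optimal summit, not against each other, and the optimal list was made from the same 3 replicates. The best overlapping peak of replicates 1, 2 and 3 had its summit a median of 21, 21 and 24 bp from the optimal one in divergent promoter peaks. In single-orientation promoter peaks the medians were 20, 15 and 35 bp. The 90th percentiles were 127.4, 134 and 128 bp in divergent and 148.2, 132 and 162 bp in single-orientation promoter peaks.

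**Figure D1:**
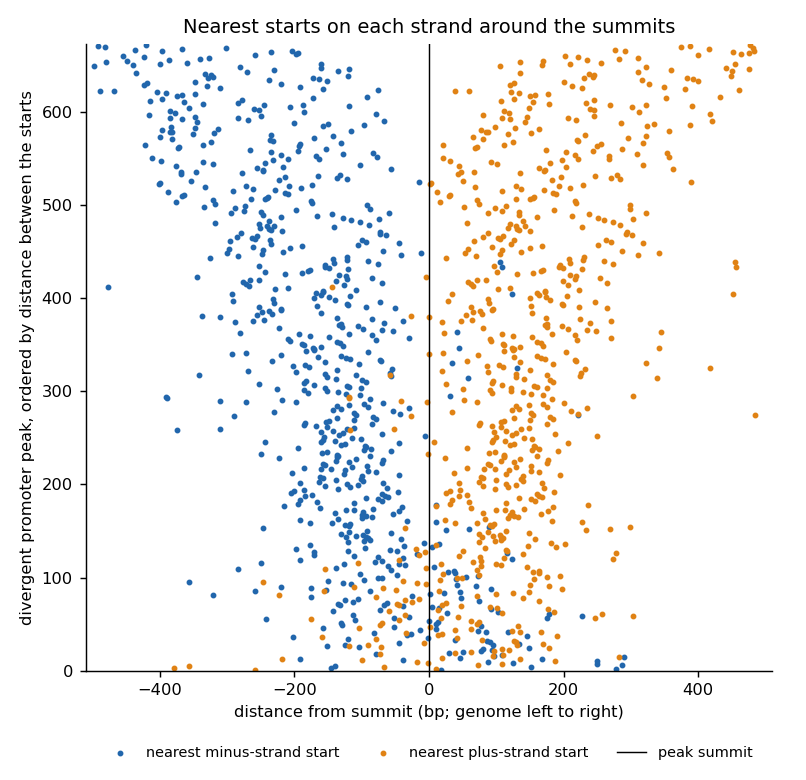
Each of the 672 divergent promoter peaks is a row, ordered from the shortest to the longest distance between its starts, with the nearest minus-strand start (blue) and plus-strand start (orange) at their distance from the summit in bp. In most rows the minus-strand start is to the left of the summit and the plus-strand start to the right, as in the 541 members whose summit is upstream of both; the crossings in the lowest rows are members with close or overlapping starts.

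Just inside the 500 bp limit, the start of CG17233 was 497 bp from the summit it shared with Clc, the clathrin light chain gene, and the start of Dhc1, a dynein heavy chain gene, was 492 bp from the summit shared with Nepl12. Just outside, mfrn was 501 bp from a summit near Gp93, and lilli 502 bp from one near NTPase. These 4 peaks ranked 3192, 2929, 2021 and 1987 in the optimal list.

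Head-to-head gene pairs were then counted across the genome, whether or not they had a peak. Pairs with an RpL or RpS gene were left out, as were RpL and RpS genes with no opposite start nearby. Of 2558 pairs with starts at most 1000 bp apart, 659 (25.8%, interval 24.1 to 27.5%) had an optimal summit within 500 bp of both genes. Of 8767 genes with no opposite start within 1000 bp, 826 (9.42%, interval 8.83 to 10.1%) had a summit within 500 bp. Over all 13945 protein-coding genes, RpL and RpS genes included, the share with such a summit was 17.4%. In the top lists of replicates 1, 2 and 3 the share of occupied pairs was 24.7, 22.8 and 23.4%, against 9.31, 9.96 and 8.66% of the lone genes. The groups did not overlap, and the difference of 14.3 ± 1.37 percentage points (SD, n = 3) had the same sign in 3 of 3 replicates (exact sign-flip permutation test over replicates, 2-sided p = 0.25, the smallest that 3 replicates allow). For genes with 1 start each, the window that reaches both genes of a pair is narrower than the window around a lone gene. Genes can have several annotated starts, and window sizes were not measured. The part of window size in the difference was not tested.

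Counted gene by gene, 29.8% of the 4850 genes in head-to-head pairs had a summit within 500 bp of their own start, and the difference from lone genes was 18.4 ± 1.03 points over the replicates (exact sign-flip permutation p = 0.25). A summit counts for both genes of a pair here. The occupied pairs were partly the same from replicate to replicate: 364 were occupied in the top lists of all 3 replicates, 221 in 2, 280 in 1 and 1693 in none.

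Occupancy varied with the spacing of the starts. Of pairs 1 to 100 bp apart, 22.5% were occupied in the optimal list, as were 22.3% of those 101 to 200 bp apart. The share was 39.7% at 201 to 300 bp and 40.4% at 301 to 400 bp, and then 22.9% at 401 to 600 bp, 7.75% at 601 to 800 bp and 2.14% at 801 to 1000 bp. Above 400 bp a fall is built in, because the window within 500 bp of both starts shrinks as they move apart. Pairs 1 to 100 bp apart were occupied less often in every list than pairs 201 to 400 bp apart. The part of window width in this was not tested. At 1 to 100 bp the replicates differed most, with 24.2, 22.5 and 15.3% in replicates 1, 2 and 3.

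**Figure D2:**
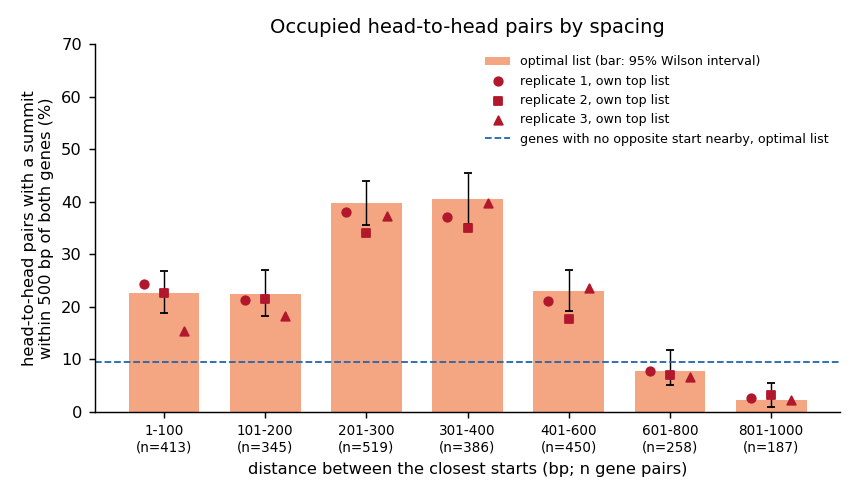
Share of head-to-head gene pairs with a summit within 500 bp of both genes, by the distance between their closest starts in bp; bars show the optimal list with 95% Wilson intervals, points the top lists of the 3 replicates, and the dashed line the 9.42% of lone genes in the optimal list. The bars at 201 to 300 and 301 to 400 bp stand at 39.7 and 40.4%, above all others, and the replicate points follow the same outline.

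The arms of the genome differed in the same count. On 3R 31.0% of head-to-head pairs were occupied in the optimal list, on 3L 27.7%, on 2L 27.6%, on 2R 21.4% and on X 18.3%; the interval of 3R (27.6 to 34.6%) did not reach that of X (14.7 to 22.5%). Chromosome 4 had 1 occupied pair of 11, at ATPsynbeta. Among promoter peaks, 9.97% of divergent and 17.3% of single-orientation peaks were on X. No test was made over arms, these intervals do not cover the spread between replicates, and the sexes were mixed in every replicate.

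The 3 replicates differed in which kind of promoter peak they supported more. A peak of the optimal list was called supported by a replicate when it overlapped a peak of that replicate's top list. In replicate 1, 86.3% of divergent and 85.9% of single-orientation promoter peaks were supported. In replicate 2 the shares were 79.5% and 85.5%, and in replicate 3 they were 76.6% and 69.7%. The sign of the difference thus changed between replicates 2 and 3, and its mean of 0.415 ± 6.52 points (SD, n = 3) was smaller than the spread between replicates (exact sign-flip permutation p = 0.75). All 3 replicates supported 382 divergent promoter peaks (56.8%) and 684 single-orientation promoter peaks (56.2%), beside 56.2% of all optimal peaks.

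Ranks showed the same exchange. The median rank of divergent and single-orientation promoter peaks was 1537 and 1656 in replicate 1, 1913.5 and 1621 in replicate 2, and 912 and 1380 in replicate 3. Replicate 3 thus placed divergent promoter peaks higher than single-orientation ones and replicate 2 placed them lower. The mean difference was -98.2 ± 381 ranks (exact sign-flip permutation p = 0.75), and the mean without replicate 3 had the opposite sign, at 86.75 ranks. These medians are over the peaks found in each whole list of 30000, which for divergent promoter peaks were 669, 666 and 551 of 672 in replicates 1, 2 and 3.

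**Figure D3:**
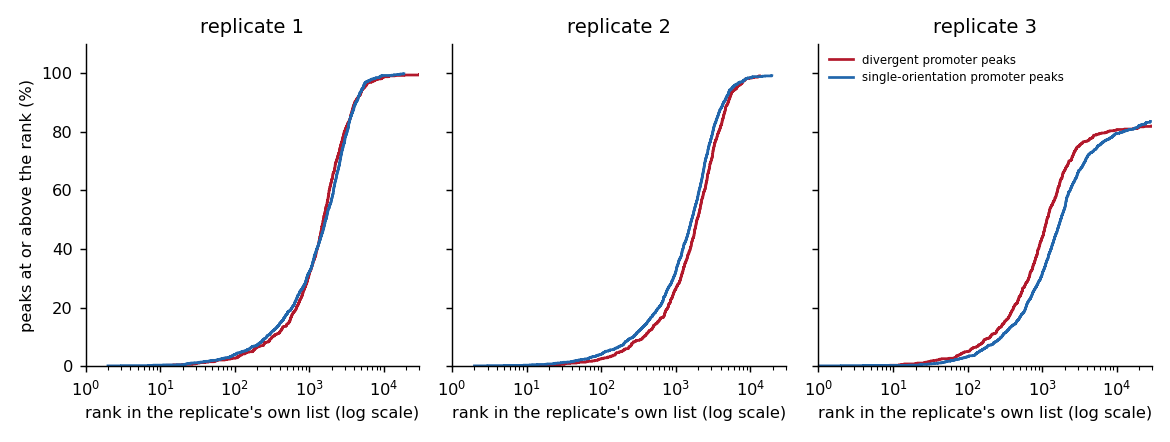
Cumulative share of divergent (red) and single-orientation (blue) promoter peaks found at or above each rank of the replicate's own list, on a log scale of ranks. The red curve lies to the left of the blue one in replicate 3 (median ranks of found peaks 912 and 1380) and to the right in replicate 2 (1913.5 and 1621), and in replicate 3 both end below 100% because 121 divergent and 200 single-orientation peaks were absent from its list.

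Replicate 3 lacked 121 of the 672 members in its whole list (18.0%), against 200 of 1217 single-orientation promoter peaks (16.4%) and 501 of all 3688 optimal peaks (13.6%). Of the members, 18 of the 200 highest were absent from it, while replicates 1 and 2 lacked none of those 200. The highest was Chro/Ssl1 at rank 71, which placed 53 and 92 in replicates 1 and 2; Chro encodes a chromodomain protein of interbands and the spindle, and Ssl1 a subunit of the general transcription factor TFIIH. Gmd/CG3792 at rank 197 (174 and 252) and Chd1/Bem46 at rank 701 (875 and 1272) were others; Chd1 encodes a chromatin remodeller. Of the 121 absent members 18.2% were on X, against 8.17% of the 551 that were found, and their starts were a median of 260 bp apart, against 296 bp. By spacing, 27.3% of the 66 members with starts 1 to 100 bp apart were absent from replicate 3, against 16.0% of the 213 members at 201 to 300 bp. The part of read depth in this was not tested, since no depth is given.

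Among the 200 highest members, the ratio of the worst to the best replicate rank had a median of 2.13 over the 182 found in all 3 replicates. It was largest at pre-mod(mdg4)-E/pre-mod(mdg4)-AD, 9.22, with ranks 207, 378 and 41. Next came CG32022/CG6511 at 8.38, with 87, 268 and 32, and CG10467/loj at 8.15, with 328, 888 and 109. In all 3 of these, replicate 3 gave the highest place and replicate 2 the lowest.

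The sequence around the summits differed between the 2 kinds of promoter peak in each replicate. Motifs were sought on both strands within 100 bp of the summit, a window of 201 bp, as the DRE TATCGATA and the shorter CGATA inside it, and as Motif 1 GGTCACACT, GGTCACA (held within it) and CAGCNCTG (Motif 7). The other motifs sought were the E-box CAGCTG, the TATA box TATAAA, the initiator core TCAGT, the GAGA site GAGAGAG, the homeodomain core TAATTA and the longer TTAATTA that contains it. Of these 11 motifs, 9 were more frequent and 2 less frequent in divergent than in single-orientation promoter peaks, with the same sign in 3 of 3 replicates for each. The sign of Motif 7 turned with a narrower window of 50 bp to each side, to -0.460 points, and with a 250 bp limit on the distance to a start 9 of the 11 motifs had 1 sign in all replicates. With 3 replicates no motif could reach a p below 0.25 in the exact sign-flip permutation test, and all 11 had p = 0.25 before and after adjustment over the motifs. The replicate lists are read on the same genome, so they are not independent in sequence. Median G+C of the summit windows was 32.3% in divergent and 36.3% in single-orientation promoter peaks, and its part in these shares was not tested.

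The DRE was in 68 of 672 divergent promoter peaks (10.1%, interval 8.06 to 12.6%) and in 35 of 1217 single-orientation promoter peaks (2.88%, interval 2.08 to 3.97%). Its share in the top lists of replicates 1, 2 and 3 was 10.4, 8.47 and 7.19% in divergent peaks, against 3.56, 2.60 and 2.81% in single-orientation peaks, a difference of 5.68 ± 1.22 points (SD, n = 3). In windows of the same length at all 13945 annotated gene starts the share was 7.84%, above that of single-orientation peaks. Those windows were centred on the start and the peak windows on the summit. The levels at gene starts, here and for the motifs below, are therefore not like for like, and the part of centring was not tested. Motif 1 was in 3.13% of divergent and 1.73% of single-orientation promoter peaks, both under the 5.29% of all gene starts. Motif 7 was in 8.78% and 6.49%, against 5.54% of all gene starts. The E-box had close shares in the optimal list, 12.6% (interval 10.3 to 15.4%) and 11.3% (interval 9.60 to 13.2%), both under the 13.8% of all gene starts.

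DRE and Motif 1 were together in 1 member only, and 88 members had at least 1 of them. Members with a DRE ranked lower than members without it in every replicate, with medians of 1735.5 and 1513 in replicate 1, 2249.5 and 1881.5 in replicate 2, and 1228.5 and 898 in replicate 3. The mean difference was 307 ± 75.5 ranks (SD, n = 3; exact sign-flip permutation p = 0.25). The highest member with the DRE was Atat/Shc, shown above, at rank 127 with 197, 214 and 45. With Motif 1 within 100 bp of the summit it was CG3698/tzn at rank 217, with 322, 360 and 107. With Motif 7 it was JMJD6/CG7071 at rank 268, with 454, 368 and 195. With the E-box it was CG13018/CG13016 at rank 70, with 79, 162 and 26.

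GAGA sites were rare in divergent promoter peaks. They were in 5 of 672 (0.744%, interval 0.318 to 1.73%) and in 94 of 1217 single-orientation promoter peaks (7.72%, interval 6.35 to 9.36%). Replicates 1, 2 and 3 gave 1.35, 1.66 and 0.799% in divergent peaks and 7.69, 10.3 and 5.15% in single-orientation peaks, which do not overlap. All gene starts had 3.69%. Of all 2558 head-to-head pairs, with or without a peak, 2.35% had the site in a window centred between the starts. The highest of the 5 members was Acbp1/Piezo, at rank 65 with 44, 50 and 198, which pairs an acyl-CoA-binding protein gene with a mechanosensitive channel gene. The initiator core was also less frequent, in 26.2% of divergent and 35.3% of single-orientation promoter peaks, against 42.8% of all gene starts, where an initiator belongs by position.

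TAATTA, the homeodomain core, was in 172 divergent promoter peaks (25.6%, interval 22.4 to 29.0%) and in 182 single-orientation promoter peaks (15.0%, interval 13.1 to 17.1%). In the replicates the shares were 23.1, 23.9 and 23.6% in divergent peaks and 14.5, 12.9 and 16.8% in single-orientation peaks, a difference of 8.85 ± 2.10 points (SD, n = 3). Of its 461 matches within 400 bp of the divergent summits, 123 were within 50 bp and 90 at 51 to 100 bp. A further 124 were at 101 to 200 bp and 124 at 201 to 400 bp, which are wider steps. In the same steps TATAAA had 258, 208, 310 and 301 matches, while the DRE had 27, 43, 60 and 54. The part of G+C content, which was lowest near the summit, was not tested. The highest member with TAATTA was CG5611/Mtl. Median ranks of members with and without it were 1620 and 1514.5 in replicate 1, 1853 and 1928 in replicate 2, and 862 and 922.5 in replicate 3, so the sign of the difference varied. TATAAA, which is also rich in A and T, was in 45.2% of divergent and 31.8% of single-orientation promoter peaks.

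**Figure D4:**
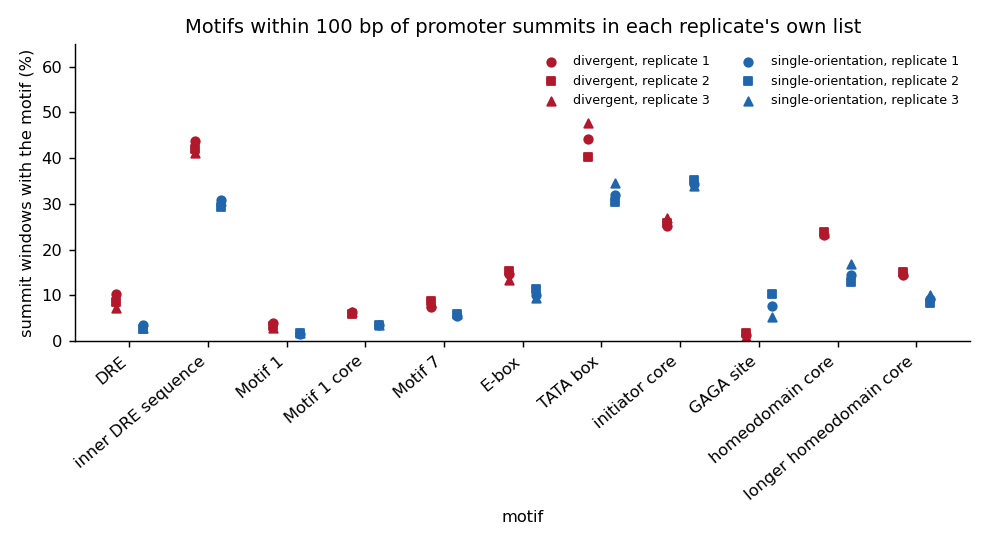
Share of summit windows (100 bp to each side) that hold each of 11 motifs, in divergent (red) and single-orientation (blue) promoter peaks of the top lists of replicates 1, 2 and 3. For every motif the 3 red points lie on the same side of their own replicate's blue points: above for 9 motifs, and below for the initiator core and the GAGA site.

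**Figure D5:**
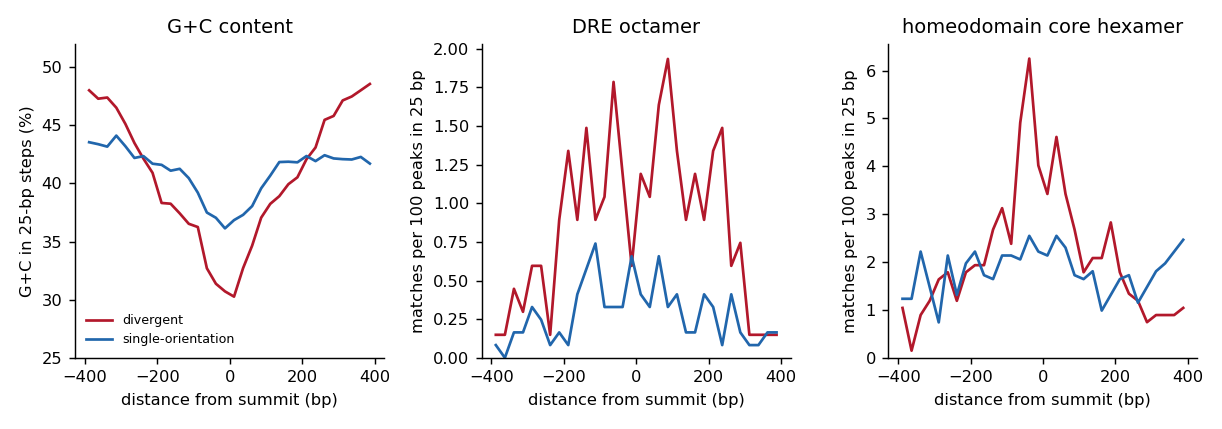
G+C content in %, and matches to the DRE octamer and the homeodomain core hexamer per 100 peaks, in steps of 25 bp from the optimal summit, for divergent (red) and single-orientation (blue) promoter peaks. The red G+C curve dips lower at the summit, and the red homeodomain curve peaks next to the summit while the DRE curve stays above the blue one over most of the central 400 bp.

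A second comparison was made among head-to-head pairs alone, without matching them for spacing. Windows of 201 bp were centred on the middle between the starts of all 2558 head-to-head pairs, and occupied pairs were set against pairs without an optimal summit. The DRE had close shares, in 8.35% of 659 occupied and 8.43% of 1899 unoccupied pairs; over the replicates the difference was -0.491 ± 1.95 points (SD, n = 3; exact sign-flip permutation p = 0.75). Its excess over single-orientation peaks was therefore not seen between occupied and unoccupied pairs. The shorter CGATA was in 38.5% of occupied and 42.1% of unoccupied pairs, and lower in occupied pairs in 3 of 3 replicates. Motif 1 was in 3.03% of occupied and 4.90% of unoccupied pairs, and lower in occupied pairs in 3 of 3 replicates. Motif 7 was in 7.44% and 4.95%, and higher in 3 of 3. The E-box was in 11.5% and 13.3%, and the sign of its difference varied between replicates (-0.463 ± 2.06 points, SD, n = 3). The GAGA site was in 1.67% of occupied and 2.58% of unoccupied pairs, and the initiator core in 27.2% and 33.1%. Both were lower in occupied pairs in 3 of 3 replicates.

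TAATTA was in 27.8% of occupied pairs (interval 24.5 to 31.3%) and 20.2% of unoccupied pairs (interval 18.4 to 22.0%). Replicates 1, 2 and 3 gave 27.3, 26.1 and 27.4% in pairs occupied in their own top list and 20.4, 21.0 and 20.5% in the rest, a difference of 6.31 ± 0.994 points (SD, n = 3; exact sign-flip permutation p = 0.25, adjusted 0.306). TATAAA was in 44.8% and 38.1% of occupied and unoccupied pairs. The occupied pairs were also lower in G+C, with a median of 30.3% against 33.8%, and had a median spacing of 278 bp against 318 bp; the part of base composition was not tested. Around all gene starts 9.95% of windows had TAATTA, below the share of unoccupied pairs too. Those windows were centred on a start and not on the middle of a pair, and the part of centring was not tested.

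The genes of occupied pairs were counted by functional group. Groups were made from gene symbols, and a gene counts as occupied when its head-to-head pair is; over all 4850 genes in such pairs the share was 25.7% in the optimal list and 24.6, 22.7 and 23.5% in the top lists of replicates 1, 2 and 3. All shares below are read beside these without a test, and several changed side between replicates. Of the mitochondrial ribosomal protein genes, 58 of 73 were in head-to-head pairs and 20 of those were occupied (34.5%; 34.5, 25.9 and 34.5% in replicates 1, 2 and 3), led by mRpS10 and mRpS23. For the respiratory chain and ATP synthase it was 16 of 43 (37.2%; 32.6, 27.9 and 23.3% in the replicates), led by ND-ASHI, which faces the fumarase gene Fum1 (rank 633, and 724, 742 and 428), and ND-42, which faces Cchl (rank 686, with 563 and 754 and no peak in replicate 3). For mitochondrial import it was 3 of 5, with Tom7 at rank 346 and Tim9a at rank 2880; replicates 1 and 2 also gave 60% and replicate 3 gave 20%.

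Most groups of genes for transcription and RNA processing had shares on both sides of the background across the replicates. Mediator, the coactivator of RNA polymerase II, had 7 of 19 genes occupied (36.8%), and 31.6, 36.8 and 31.6% in replicates 1, 2 and 3, above the background in each. It was led by MED30 at rank 632 and MED27 at rank 702. General transcription factors had 5 of 16 (31.3%; 25, 37.5 and 18.8% in the replicates), led by Taf5 at rank 622 and Taf2 at rank 1243, both subunits of TFIID. RNA polymerase subunits had 5 of 19 (26.3%; 26.3, 15.8 and 36.8%), led by Polr3E at rank 135 (117, 153 and 162 in the replicates) and Polr2B at rank 304 (426, 455 and 146). The spliceosome had 8 of 27 (29.6%; 29.6, 18.5 and 25.9%), with Sf3b6 at rank 669 and SmD3 at rank 1058. Nuclear pore genes had 3 of 16 (18.8%; 18.8, 12.5 and 37.5%), with Nup98-96 at rank 1142 and Nup133 at rank 1388.

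Protein synthesis and turnover gave shares on both sides of the background. Aminoacyl-tRNA synthetases, which charge tRNAs, had 7 of 23 occupied (30.4%, and the same share in each replicate), led by GluProRS at rank 568 and SerRS at rank 705. Translation factors had 5 of 25 (20.0%; 20.0, 20.0 and 8.0% in the replicates), led by eIF4EHP and by eIF3h at rank 625. The proteasome had 5 of 24 (20.8%; 20.8, 20.8 and 12.5%), with Rpn5 at rank 1492 and Rpn6 at rank 1879. The COP9 and ubiquitin enzyme group had 2 of 8 (25%; 25, 12.5 and 25%), with Uba2, a subunit of the SUMO-activating enzyme, at rank 262 and Uba3 at rank 1275. Vesicle and membrane traffic had 18 of 46 (39.1%; 37.0, 32.6 and 37.0%), led by Vps33B at rank 146 (137, 198 and 136) and Vps52 at rank 906 (741 and 1255, with no peak in replicate 3).

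DNA replication had 2 of 11, and both genes shared 1 peak: RPA1, of the single-strand binding complex, and Mcm2, of the replicative helicase, are 519 bp apart around the peak at rank 629, which placed 923, 1004 and 235. The lowest shares in the optimal list were those of chemoreceptor and cuticle genes. Chemoreceptor genes had 25 of 179 members in head-to-head pairs and 0 occupied, and cuticle genes 4 of 70 and 0 occupied; a count of 0 (limit of 3 counts) allows up to 12% of the 25 chemoreceptor genes, and 4 cuticle genes are too few for a limit of use. This limit covers counting error only. In replicate 2 the share of chemoreceptor genes was 4%. Head-to-head pairing itself thus varied. Among mitochondrial ribosomal protein genes 79.5% were in such pairs, among spliceosome genes 87.1% and among chemoreceptor genes 14.0%. Over all protein-coding genes it was 34.8%, with RpL and RpS genes in the total although their pairs were not counted.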

How the data were processed

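Anti-GFP ChIP-seq peak lists in dm6 were used for 3 biological replicates, the pool and the optimal list, 5 lists in all. The deposited signal value is a score of unstated scale, so it served for ranks alone. No result uses the −log10 q values that the authors deposited. Neither aligner, peak caller nor reproducibility threshold is given in the sources used here, and depth is unknown. The dm3 lists were not used here.

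Starts came from 13945 protein-coding genes of BDGP6.54 (Ensembl 115) on 6 arms, and sequences from the RefSeq dm6 assembly. Coordinates are 1-based. The rank of a peak in a replicate is that of the best peak overlapping it by at least 1 bp, which can belong to a neighbouring record. Replicates were the units of every test (exact sign-flip permutation, 2-sided, smallest p 0.25); p-values were adjusted by Benjamini-Hochberg over the 11 motifs. Named genes were the 12 highest members, the 2 highest of each gene group, the highest with each motif, those next to the 500 bp limit and the 3 least even between replicates. Members and lists were chosen with earlier results of these data known. Scripts used Python 3.11.15, numpy 2.4.6, pandas 2.3.3 and scipy 1.17.1, and were tested on simulated data. Alternatives were the distance limit, the starts used, overlapping records, the 50% of the list with the higher signal, the overlap, the motif window and each replicate left out.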

Additional observations from a re-analysis of the deposited data

How the results depend on the processing

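The share of divergent peaks among promoter peaks moved from 35.6% to 29.2% with a 250 bp limit, to 41.6% with only the 5′ end of each gene and to 38.7% in the higher 50% of the list; without each replicate its mean was 33.3 to 36.0%. The difference in replicate support reversed to -0.421 points with a 1000 bp limit, -1.88 in the higher 50% and -0.642 with whole lists, and ranged from -2.86 to 3.66 without each replicate. The rank difference reversed to 136.8 in the higher 50%, was -144 with absent peaks placed last (an alternative chosen after seeing the data), and ranged from -293.5 to 86.75 without each replicate. The excess of occupied pairs stayed positive in all alternatives run, 8.83 to 18.4 points, and was 13.8 to 15.1 without each replicate; the value per gene was added after seeing the data. All 3 replicates had 1 sign for 9 of 11 motifs with a 250 bp limit, for 10 with gene 5′ ends and for 11 under the other alternatives, but Motif 7 turned to -0.460 points with 50 bp to each side. The causes were not tested. No paired analysis was possible because the labels give 1 group, so no groups share replicate numbers; each difference between kinds of peak or pair was already taken within a replicate. Depth is unknown, peaks are not replicates, and 3 replicates cannot give a p below 0.25.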
